A study of Homo sapiens with 30 samples.

Results

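The proteasome genes described here were the 45 protein-coding genes, of 60107 genes in the count table, whose symbol is PSMA, PSMB, PSMC, PSMD, PSME, PSMF or PSMG followed by a number, without the interferon-inducible subunits PSMB8, PSMB9 and PSMB10. By role they were 16 genes of the core particle (8 alpha and 8 beta subunits), 17 genes of the regulatory cap (6 base ATPases, 3 other base subunits and 8 lid subunits), 5 genes of alternative caps and an inhibitor (PSME1 to PSME4 and PSMF1), and 7 assembly factors (PSMG1 to PSMG4 for the core, and PSMD5, PSMD9 and PSMD10 for the cap). The proteasome is the large protease that degrades proteins tagged with ubiquitin. Its barrel-shaped core holds the proteolytic sites inside rings of beta subunits, rings of alpha subunits gate the entry, and the cap recognises tagged proteins, removes the ubiquitin and unfolds the chain. When proteasome activity is impaired, the membrane-bound transcription factor NRF1 (gene NFE2L1) is cleaved by the protease DDI2 and raises the transcription of the subunit genes together through antioxidant response elements, to which it binds with a small MAF partner.

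All libraries came from HepG2 cells, a long-established human line of hepatoblastoma origin. Every culture was transfected with an oligonucleotide in a lipid reagent and received, 24 h later, 10 µM sorafenib, a drug for liver cancer that inhibits several kinases, or the vehicle dimethyl sulfoxide (DMSO). Cells that carried the inhibitor control (IC) or the inhibitor of miR-200c-3p (I-miR-200c-3p) were harvested after 6 h, and cells that carried the mimic control (MC) or the mimic of miR-222-5p (M-miR-222-5p) or of miR-512-3p (M-miR-512-3p) after 24 h. This gave 10 groups of 3 biological replicates and 30 libraries. No transfection was measured at both times, so the time and the kind of oligonucleotide cannot be told apart. All cells were of 1 line, and no untransfected cells were analysed here.

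The total count per library was 3938764 to 9657063, and 13252 to 16812 genes had a count. Mitochondrial genes held 17.5 to 26.8% of the counts, with both the highest share within a 24 h group (24.2% in replicates 1 and 2) and the lowest of all libraries (17.5% in replicate 3) in M-miR-512-3p with sorafenib. The 8 hepatocyte markers were present in all libraries, with ALB at counts-per-million values (CPM, of the library total) of 2053 to 5207. The defining markers of other cell types were at or near 0: the leukocyte gene PTPRC reached 0.144, while CD3E, the endothelial genes VWF and KDR and the fibroblast genes COL1A2 and DCN had no count. LYZ was the only leukocyte marker above 10 CPM, at 93.5 to 309. Averaged over the 24 h transfections, 6 of the 8 hepatocyte markers were lower with sorafenib (median log2 fold change -0.57, with all 8 below 0), and none of the 8 passed at 6 h (median 0.05). Of the 2 leukocyte and 2 fibroblast markers that passed the filter on low counts, 1 leukocyte marker was lower at 24 h and 1 fibroblast marker at 6 h. The part of these markers in the results below was not tested.

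Together the 45 genes took 0.639 to 0.856% of the counts of a library. PSMA8, a subunit of the testis, had 0 counts in the 30 libraries, which allows at most 0.311 to 0.762 CPM in a library. PSMB11, a subunit of the thymus, had 5 counts in all. From here on CPM refers to library totals scaled by the trimmed mean of M values (TMM). The other 43 genes passed the filter on low counts in every fit, with mean levels over the libraries from 10.5 (PSMA6) to 906.5 (PSMA7) CPM. A level is a share of the RNA of a culture, so fewer cells of a type and less RNA per cell cannot be told apart.

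Sorafenib was compared with DMSO in each transfection, as an average over the IC and I-miR-200c-3p transfections at 6 h, and as an average over the MC, M-miR-222-5p and M-miR-512-3p transfections at 24 h. At 24 h, 10 of the 43 tested genes (23.3%) passed a Benjamini-Hochberg adjusted p of 0.05 in the edgeR quasi-likelihood test, against 25.8% of the 13244 genes tested. Of the 10, 9 rose (20.9% of the members, against 13.4% of all genes) and 1 fell (2.33%, against 12.4%). The 9 genes that rose were the lid subunits PSMD6, PSMD7, PSMD11 and PSMD14, the ATPase PSMC5, the alpha subunits PSMA3 and PSMA7, and the assembly factors PSMG3 and PSMD9. The gene that fell was PSME1, a subunit of the alternative cap PA28. The median log2 fold change of the members was 0.20, against -0.04 over all genes, and 34 of 43 members lay above 0, against 47.4% of all genes. At 6 h, none of the 43 passed in edgeR (2.89% of 12738 genes did) or in DESeq2. An unadjusted p under 0.05 was found for 5 of the 43 and for 1962 of the 12738. The member median was 0.06, against 0.005 over all genes, and 26 of 43 lay above 0. The averaged 24 h values depended on the scaling. With library totals in place of TMM, the median over all genes moved to -0.17 and that of the members to 0.07, so the members lay 0.24 above all genes under either scaling, and 4 members rose and 2 fell, PSME1 and PSMB5.

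**Figure D1:**
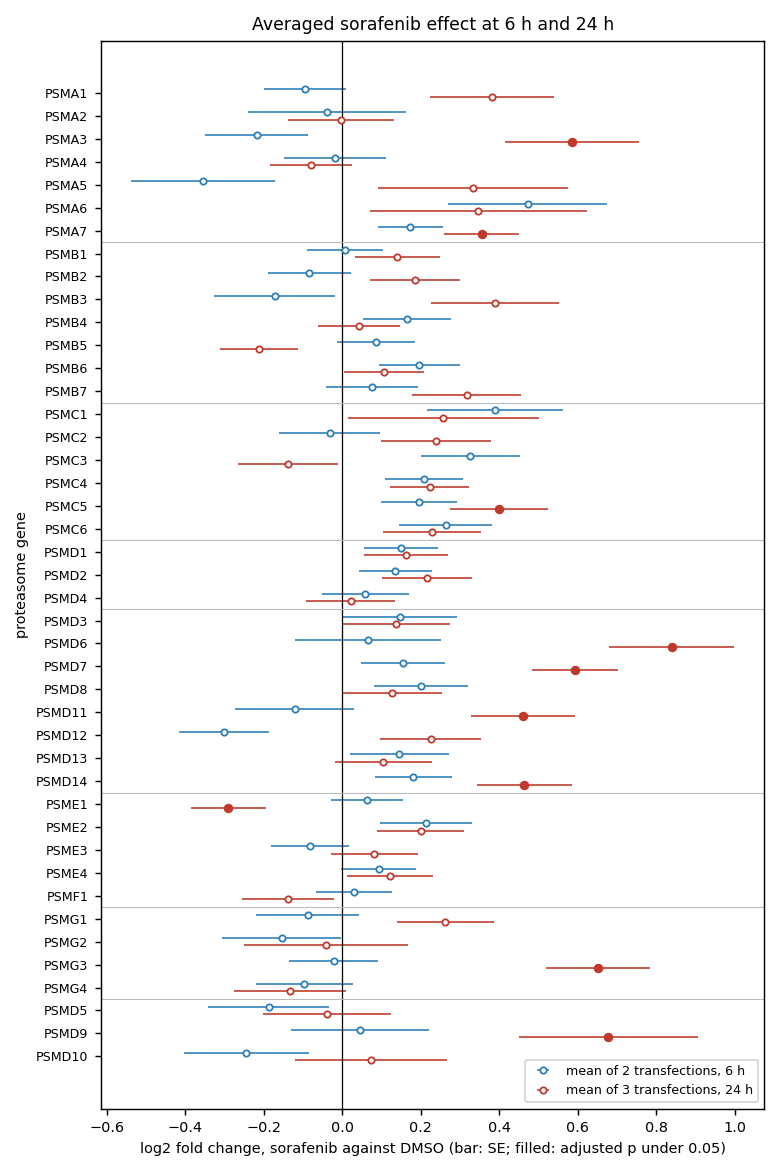
Log2 fold change of each tested proteasome gene with sorafenib against DMSO (x axis, TMM scale), averaged over the 2 transfections of 6 h (blue) and the 3 of 24 h (red), by role from the core at the top to the assembly factors. Bars are the SE and filled points passed an adjusted p of 0.05: 10 genes at 24 h, of which PSME1 alone lies left of 0, and none at 6 h.

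In single transfections few members passed. None did in IC, where 0.0393% of all genes passed, and none passed in DESeq2. No member had an unadjusted p under 0.05 there, and 481 of the 12738 genes tested did. In I-miR-200c-3p none passed (2.28% of all genes), and DESeq2 also called 0. There 8 of the 43 members had an unadjusted p under 0.05, as did 1945 of the 12738 genes tested. In MC, 1 gene, PSMD6, passed (2.6% of all genes). In M-miR-222-5p none passed (4.38% of all genes), and DESeq2 called 2. There 10 of the 43 members had an unadjusted p under 0.05, as did 2531 of the 13244 genes tested. In this transfection same-numbered libraries deviated together, and with the replicate number as a block PSMD7 passed (0.62, adjusted p = 0.0371). In M-miR-512-3p, PSMD7 rose and PSMA4 fell (9.96% of all genes passed). The member medians were -0.0009 in IC, 0.11 in I-miR-200c-3p, 0.16 in MC, 0.19 in M-miR-222-5p and 0.24 in M-miR-512-3p, beside medians of all genes between -0.04 and 0.005. In all 3 transfections of 24 h, 22 of 43 members (51.2%) lay above 0 and 3 (6.98%) below, against 26.8% and 29.5% of all genes. With library totals these shares were 25.6% and 9.3%, against 19.8% and 38.5%.

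**Figure D2:**
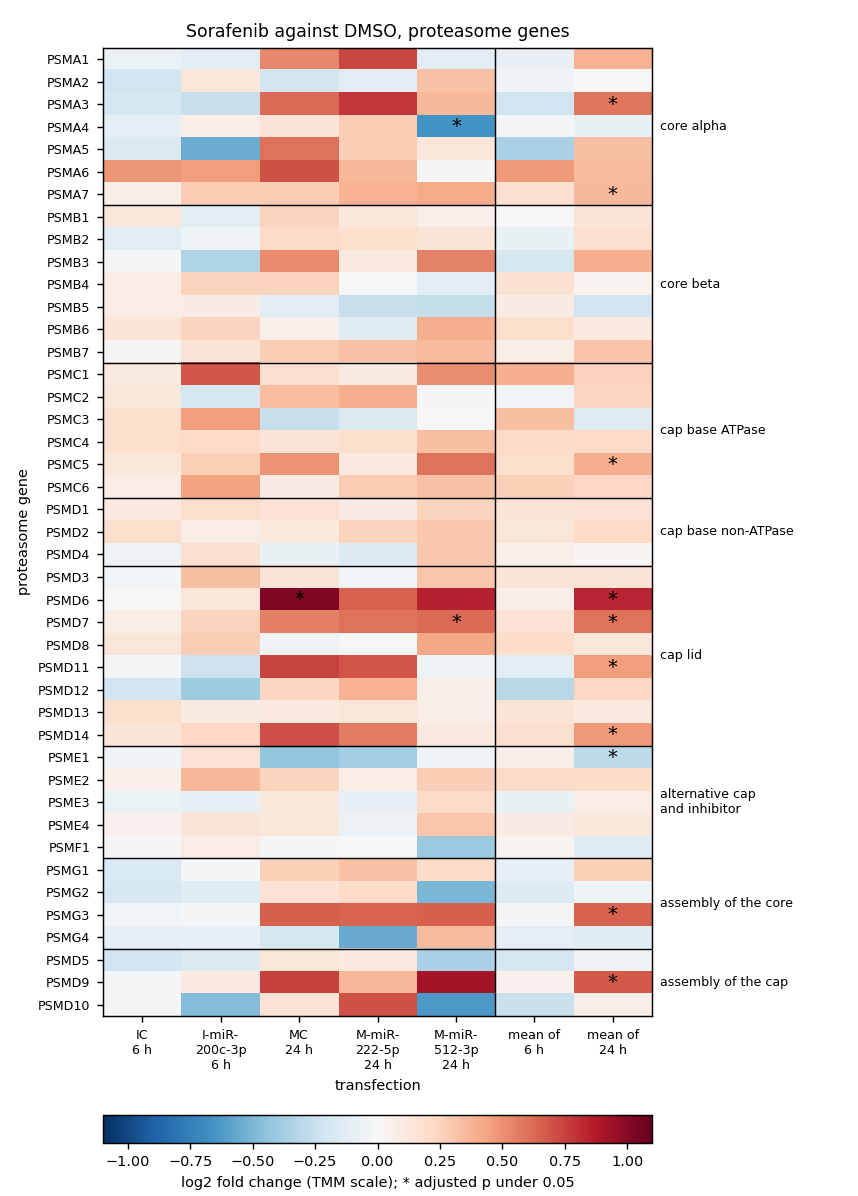
Log2 fold change with sorafenib against DMSO (colour) of the 43 tested proteasome genes (rows, by role) in the 5 transfections and in their averages at 6 h and 24 h (columns). Asterisks mark an adjusted p under 0.05: PSMD6 in MC, PSMD7 and PSMA4 in M-miR-512-3p, and 10 genes in the 24 h average.

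Averaged over 24 h, 16 of the 17 genes of the regulatory cap lay above 0 (median 0.23), against 47.4% of all genes, and 5 (29.4%) rose, against 13.4% of all genes. The lid held 4 of the 5, out of 8 lid genes. In all 3 transfections of 24 h, 11 cap genes (64.7%) lay above 0 and 1 (5.88%) below. For all genes these shares were 26.8% and 29.5%. With library totals 5 cap genes (29.4%) lay above and 1 (5.88%) below, against 19.8% and 38.5%. In both transfections of 6 h, 11 (64.7%) lay above 0 and 2 (11.8%) below under either scaling. There all genes gave 32.6% and 31.8% with TMM, and 28.3% and 35.9% with library totals. The summed level of the cap was 2488 ± 73.7 CPM (SD, n = 3) in MC with DMSO and 2951 ± 72.3 with sorafenib, 2560 ± 243 and 3002 ± 94.1 in M-miR-222-5p, and 2724 ± 79.1 and 3403 ± 249 in M-miR-512-3p. In these 3 transfections each sorafenib library lay above each DMSO library. The sums at 6 h were 2966 ± 147 and 3169 ± 254 CPM in IC, where the libraries overlapped, and 2884 ± 85.8 and 3209 ± 71.3 in I-miR-200c-3p, where they did not. At 6 h 14 of 17 cap genes lay above 0 (median 0.15, against 0.005 over all genes), and none passed. An unadjusted p under 0.05 was found for 4 of the 17 and for 1962 of all 12738 genes tested. PSMC3, a base ATPase, was the only cap gene below 0 at 24 h, at -0.14 ± 0.13 (SE), and stood at 0.33 ± 0.13 at 6 h, neither of which passed.

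**Figure D3:**
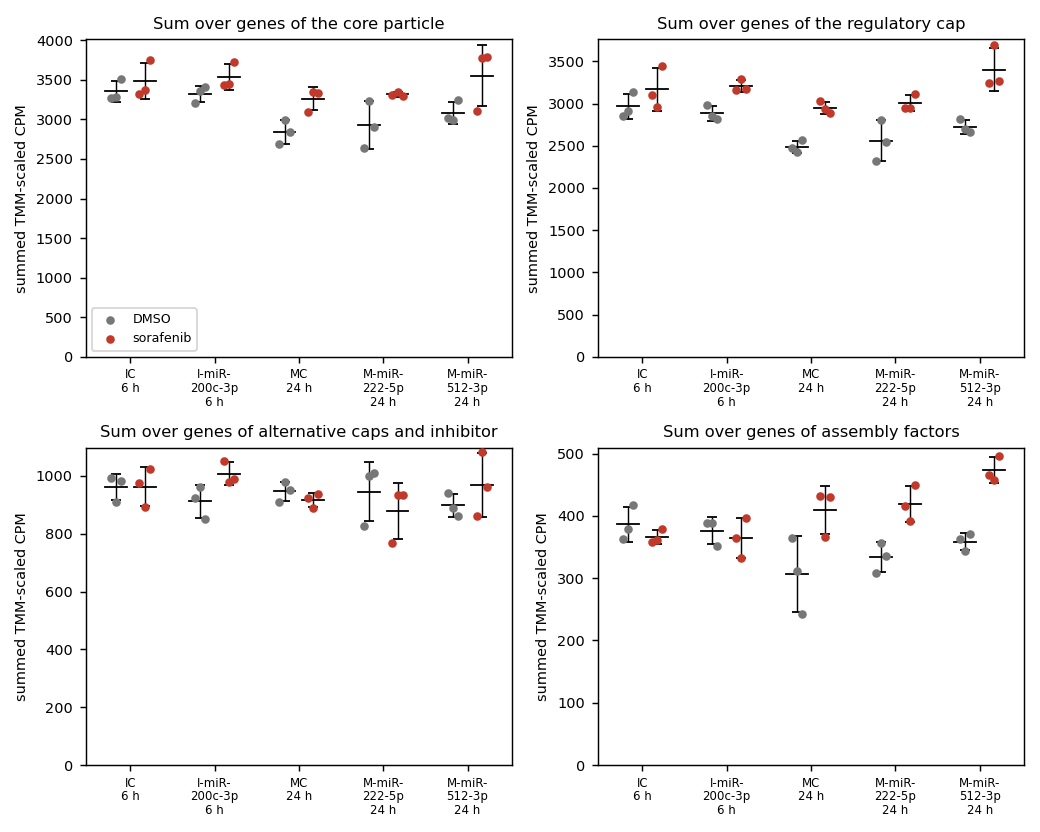
Summed TMM-scaled CPM over the genes of each role (y axis) in each library, with DMSO in grey and sorafenib in red, for the 5 transfections (x axis); points are libraries, lines the mean and bars the SD of 3. On this scale the cap and the assembly factors separate between sorafenib and DMSO in the 3 transfections of 24 h. The assembly factors do so narrowly in MC, with 365.2 CPM in the highest DMSO library and 365.4 in the lowest sorafenib library. The core separates in MC and M-miR-222-5p, and the alternative caps and inhibitor overlap in all 3.

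PSMD6, a subunit of the lid, had the largest rise among the members at 24 h. In MC it was at 22.9, 23.3 and 21.0 CPM with DMSO and at 46.3, 37.9 and 52.7 with sorafenib. In M-miR-222-5p it was at 31.7, 24.3 and 21.2 with DMSO and at 42.3, 44.03 and 34.9 with sorafenib. In M-miR-512-3p it was at 26.6, 34.0 and 35.2 with DMSO and at 49.5, 35.9 and 89.6 with sorafenib. Sorafenib libraries were above the DMSO libraries in each of the 3, narrowly so for replicate 2 of M-miR-512-3p. The averaged log2 fold change was 0.84 ± 0.16 (SE; edgeR adjusted p = 0.000372), and that in MC alone 1.03 ± 0.28 (adjusted p = 0.0452). The call in MC was kept in 4 of 11 alternative fits, and was lost without any single MC library other than replicate 2 with sorafenib (adjusted p up to 0.219), whereas the averaged call was kept in 22 of 22. At 6 h the libraries overlapped, from 28.4 to 52.3 CPM in IC with DMSO and from 33.9 to 46.8 with sorafenib.

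PSMD7, the lid subunit that pairs with the deubiquitinase PSMD14, showed the same separation. It was at 162, 192 and 180 CPM in MC with DMSO and at 275, 250 and 256 with sorafenib. The M-miR-222-5p libraries were at 175, 240 and 146 with DMSO and at 259, 275 and 320 with sorafenib. The M-miR-512-3p libraries were at 219, 224 and 203 with DMSO and at 293, 420 and 309 with sorafenib. No sorafenib library of 24 h fell among the DMSO libraries of its transfection. The averaged log2 fold change was 0.59 ± 0.11 (SE; edgeR adjusted p = 0.000285) and was called in 22 of 22 alternative fits, while the call in M-miR-512-3p (0.62 ± 0.19, adjusted p = 0.0357) was kept in 4 of 11 and lost without any 1 of its DMSO libraries or without replicate 2 with sorafenib (adjusted p up to 0.156). PSMD14 removes ubiquitin from proteins that enter the cap. It rose by 0.46 ± 0.12 on average (adjusted p = 0.00618, kept in 22 of 22 fits), with 0.71 in MC, 0.57 in M-miR-222-5p and 0.11 in M-miR-512-3p, where its libraries overlapped.

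PSMD11, a lid subunit, rose by 0.46 ± 0.13 on average (edgeR adjusted p = 0.0124). In MC and M-miR-222-5p its libraries did not overlap. With M-miR-512-3p it was at 278, 303 and 391 CPM with DMSO and at 396, 189 and 372 with sorafenib, so replicate 2 of sorafenib lay below all others. PSMC5, a base ATPase, rose by 0.40 ± 0.13 (adjusted p = 0.0204), with 0.49 in MC, 0.11 in M-miR-222-5p and 0.60 in M-miR-512-3p. The calls of PSMD11 and PSMC5 were lost with library totals in place of TMM (adjusted p = 0.0782 and 0.104). The gene of a neighbour on the opposite strand, FTSJ3, overlaps PSMC5 and held counts equal to 50.7% of those of PSMC5, and the strand setting of the counting is not given in the sources used here.

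The sequences before PSMD7 and PSMD6 are shown because these genes had the smallest adjusted p among the members at 24 h. They come from RefSeq on GRCh38.p14, run 5′ to 3′ on the strand of the gene and cover 250 bases before and 50 after the start. Capitals mark the letters CCAAT or their complement ATTGG. PSMD7 lies on the plus strand (chr16:74296564-74296863) and PSMD6 on the minus strand (chr3:64023445-64023744).
PSMD7: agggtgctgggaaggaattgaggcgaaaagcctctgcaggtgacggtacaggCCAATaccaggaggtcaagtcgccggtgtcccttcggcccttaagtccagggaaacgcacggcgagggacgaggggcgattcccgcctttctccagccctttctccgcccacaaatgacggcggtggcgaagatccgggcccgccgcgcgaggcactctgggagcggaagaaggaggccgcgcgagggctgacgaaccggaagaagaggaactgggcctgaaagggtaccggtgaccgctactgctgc
PSMD6: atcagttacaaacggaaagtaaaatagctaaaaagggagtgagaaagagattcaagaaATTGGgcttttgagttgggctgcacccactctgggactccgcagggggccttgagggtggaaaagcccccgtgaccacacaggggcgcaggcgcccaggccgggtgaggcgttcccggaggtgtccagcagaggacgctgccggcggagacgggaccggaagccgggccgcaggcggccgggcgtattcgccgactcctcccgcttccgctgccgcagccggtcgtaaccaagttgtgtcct

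Promoter sequences were at hand for 39 of the 45 genes, in 47 entries, and were searched on both strands. CCAAT occurred in 19 of the 47 (40.4%), against 34.6% of the 35116 promoters of all genes. The letters TGACNNNGC, the core of the antioxidant response element, occurred in 14 of the 47 (29.8%), against 13.3% of all promoters. They were not found in the windows of PSMD7 and PSMD6. Of the genes called at 24 h, PSMC5, PSMD9 and PSME1 held them (PSMG3 and PSMA7 were not among the sequences at hand and were not searched), which places them before genes that rose and before the gene that fell. The windows below are on GRCh38.p14, on the plus strand, with the match or its complement in capitals, at chr17:63827649-63827687 for PSMC5, chr12:121888626-121888664 and chr12:121888673-121888711 for PSMD9, and chr14:24136093-24136131 for PSME1. A match is a description of the letters and no evidence of binding.
PSMC5: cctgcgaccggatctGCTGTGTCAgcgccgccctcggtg
PSMD9, upstream match: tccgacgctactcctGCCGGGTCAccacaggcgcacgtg
PSMD9, downstream match: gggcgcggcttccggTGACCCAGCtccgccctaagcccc
PSME1: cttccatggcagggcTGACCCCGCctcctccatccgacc

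The core particle lay above 0 at 24 h in 11 of 14 tested genes (median 0.25), against 47.4% of all genes. The alpha subunits PSMA3 and PSMA7 rose, which is 14.3% of the core genes and close to the 13.4% of all genes, while none of the 7 tested beta subunits passed. At 6 h 7 of 14 lay above 0 (median -0.0056). The summed core level was 2843 ± 154 CPM with DMSO and 3261 ± 143 with sorafenib in MC, 2928 ± 299 and 3315 ± 30.8 in M-miR-222-5p, and 3084 ± 139 and 3554 ± 391 in M-miR-512-3p, where replicate 1 with sorafenib, at 3103, lay below the highest DMSO library, at 3244. PSMA7, an alpha subunit, was at 769, 800 and 737 CPM in MC with DMSO and at 938, 912 and 922 with sorafenib. It rose by 0.36 ± 0.10 on average (edgeR adjusted p = 0.00785), with separate libraries in each of the 3 transfections. With library totals its value was 0.22 and the call was lost (adjusted p = 0.0723).

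PSMA3, an alpha subunit, was at 79.5, 78.8 and 62.9 CPM in MC with DMSO and at 85.7, 111 and 144 with sorafenib. With M-miR-222-5p it was at 113, 66.0 and 64.2 with DMSO and at 151, 142 and 125 with sorafenib. In M-miR-512-3p it was at 72.9, 98.7 and 150 with DMSO and at 135, 78.8 and 206 with sorafenib. MC and M-miR-222-5p separated, and M-miR-512-3p overlapped. The averaged value was 0.59 ± 0.17 (edgeR adjusted p = 0.0133), lost with library totals (adjusted p = 0.0625). PSMA3-AS1, on the opposite strand, held counts equal to 25.5% of those of PSMA3.

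The catalytic subunits did not pass at either time. PSMB5, which carries the chymotrypsin-like activity, stood at -0.21 ± 0.10 (SE) at 24 h and 0.09 ± 0.10 at 6 h, PSMB6, which carries the caspase-like activity, at 0.11 ± 0.10 and 0.20 ± 0.10, and PSMB7, which carries the trypsin-like activity, at 0.32 ± 0.14 and 0.08 ± 0.12. The 24 h adjusted p values in edgeR were 0.119 for PSMB5, 0.47 for PSMB6 and 0.0968 for PSMB7. PSMB5 was lower in the fit with library totals (-0.35, adjusted p = 0.00913). PSMB7 passed as higher when replicate 2 of MC with DMSO, replicate 2 of M-miR-222-5p with DMSO or replicate 1 of M-miR-512-3p with sorafenib was left out (0.40 to 0.43, adjusted p from 0.0222 to 0.0442), and with a replicate block (0.32, adjusted p = 0.0444).

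**Figure D4:**
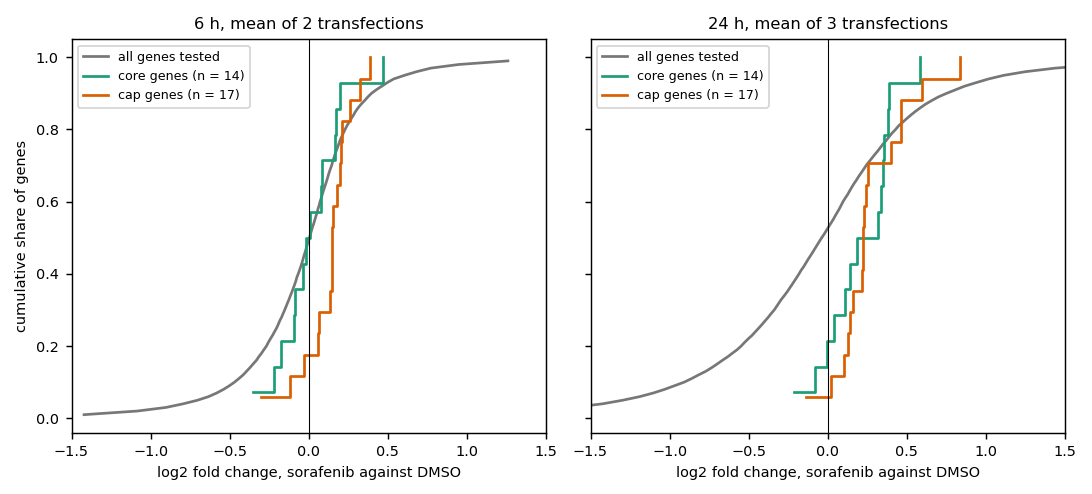
Cumulative share of genes (y axis) by log2 fold change with sorafenib against DMSO (x axis, cut at -1.5 and 1.5) for all genes tested (grey), the 14 core genes (green) and the 17 cap genes (orange), averaged over 6 h (left) and over 24 h (right). At 24 h the medians were 0.25 for the core, 0.23 for the cap and -0.04 for all genes; at 6 h they were -0.0056, 0.15 and 0.005.

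PSME1 fell on average at 24 h, and its libraries separated in MC and M-miR-222-5p. In MC it was at 314, 298 and 324 CPM with DMSO and at 247, 219 and 221.9 with sorafenib. In M-miR-222-5p it was at 293, 261 and 269 with DMSO and at 192, 222.2 and 218 with sorafenib. The M-miR-512-3p libraries were at 225, 212 and 194 with DMSO and at 203, 243 and 179 with sorafenib, and the groups overlapped. The averaged log2 fold change was -0.29 ± 0.09 (SE; edgeR adjusted p = 0.0257). The call was kept in 9 of 22 alternative fits, among them that with library totals (-0.43, adjusted p = 0.00103), and was lost when 1 of 12 of the 18 libraries was left out (adjusted p up to 0.0921). PSME2, its partner in PA28, stood at 0.20 ± 0.11 (adjusted p = 0.195). PSME3, PSME4 and PSMF1, which encode the nuclear cap PA28 gamma, the cap PA200 and the inhibitor PI31, stood at 0.08 ± 0.11, 0.12 ± 0.11 and -0.14 ± 0.12. The summed level of the 5 genes overlapped between sorafenib and DMSO in MC, M-miR-222-5p and M-miR-512-3p at 24 h and in IC at 6 h. In I-miR-200c-3p at 6 h it was higher with sorafenib, without overlap (912.5 ± 57.6 and 1007 ± 40.0 CPM), as were PSME1 (212 ± 7.10 and 237 ± 16.0) and PSME2 (163 ± 22.2 and 211 ± 33.8), neither of which passed. EMC9, on the opposite strand of PSME1, held counts equal to 17.3% of those of PSME1.

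The assembly factors were higher as a sum at 24 h and not at 6 h, with unequal members. Their summed level was 365, 311 and 243 CPM in MC with DMSO and 433, 365 and 430 with sorafenib. In M-miR-222-5p it was 309, 357 and 336 with DMSO and 415, 392.4 and 449 with sorafenib, and in M-miR-512-3p 362, 343 and 370 with DMSO and 466, 458 and 497 with sorafenib. These 3 transfections separated on the TMM scale, narrowly in MC. At 6 h the groups overlapped, with means of 386 ± 27.9 and 366 ± 11.5 in IC. PSMG3 and PSMD9, 2 of the 7, rose at 24 h, as did 13.4% of all genes. The other 5 did not pass, with averaged values from -0.13 (PSMG4) to 0.26 (PSMG1). The median was 0.07 over the 7, against -0.04 over all genes. At 6 h, 6 of 7 lay below 0 (median -0.10, against 0.005 over all genes) and none passed.

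PSMG3, a chaperone of the alpha ring, was at 108, 124 and 110 CPM in MC with DMSO and at 202, 147 and 186 with sorafenib. The M-miR-222-5p libraries were at 68.5, 157 and 121 with DMSO and at 167, 159 and 217 with sorafenib. With M-miR-512-3p it was at 127, 111 and 112 with DMSO and at 180, 213 and 173 with sorafenib. The libraries separated in all 3, narrowly in M-miR-222-5p. The averaged value was 0.65 ± 0.13 (SE; edgeR adjusted p = 0.000715), with 0.65 in MC, 0.64 in M-miR-222-5p and 0.66 in M-miR-512-3p, and it was called in 22 of 22 alternative fits. PSMD9, a chaperone of the ATPase ring, rose by 0.68 ± 0.23 (adjusted p = 0.0307). Its MC libraries spread widely, from 13.7 to 81.0 CPM with DMSO and from 36.9 to 101 with sorafenib, while in M-miR-512-3p it was at 43.3 to 47.9 with DMSO and 82.2 to 91.7 with sorafenib. The call of PSMD9 was lost without replicate 1 of MC with sorafenib (adjusted p = 0.0684) and with library totals (adjusted p = 0.0821).

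**Figure D5:**
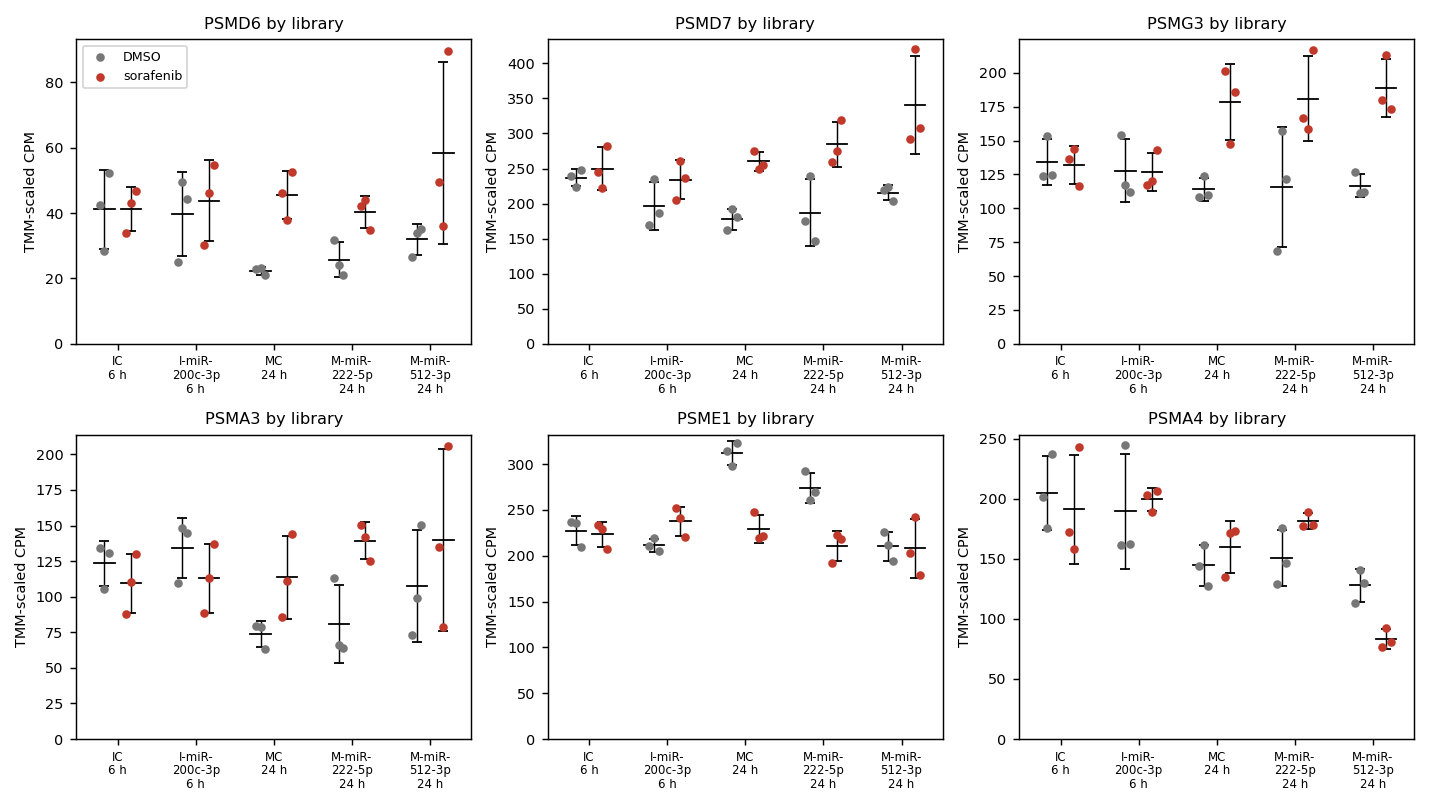
TMM-scaled CPM (y axis) of 6 proteasome genes in each library, with DMSO in grey and sorafenib in red, for the 5 transfections (x axis); points are libraries, lines the mean and bars the SD of 3. PSMD6, PSMD7 and PSMG3 separate in the 3 transfections of 24 h, PSMA3 and PSME1 in MC and M-miR-222-5p, and PSMA4 is lower with sorafenib in M-miR-512-3p and higher with it in M-miR-222-5p.

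The genes at the ends of each comparison varied. The highest and lowest members were PSMA6 (0.48 ± 0.29) and PSMD5 (-0.21 ± 0.22) in IC, and PSMC1 (0.68 ± 0.24, edgeR adjusted p = 0.163) and PSMA5 (-0.55 ± 0.26, adjusted p = 0.313) in I-miR-200c-3p. They were PSMD6 and PSME1 (-0.44 ± 0.16) in MC, PSMA3 (0.78 ± 0.30) and PSMG4 (-0.56 ± 0.25) in M-miR-222-5p, and PSMD9 (0.91 ± 0.40) and PSMA4 in M-miR-512-3p. Of these, PSMD6 in MC and PSMA4 in M-miR-512-3p passed.

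The averaged effects of 24 h and 6 h were compared in a fit of the 30 libraries, in which 9.4% of 13800 genes passed. Among the members 2 passed, both with a higher value at 24 h: PSMA3, by 0.81 ± 0.25 (edgeR adjusted p = 0.0317), and PSMG3, by 0.68 ± 0.19 (adjusted p = 0.017). PSMD6 differed by 0.78 ± 0.26 (adjusted p = 0.0501). The call of PSMG3 was kept in 33 of 34 alternative fits (0.0501 without replicate 1 of I-miR-200c-3p with DMSO). That of PSMA3 was kept in 17 of 34 and lost when 1 of 16 of the 30 libraries was left out. Without replicate 2 of M-miR-512-3p with sorafenib, 8 members passed. PSMA1, PSMA3, PSMD6, PSMD11, PSMD12 and PSMG3 had a higher value at 24 h, and PSMC3 and PSME1 a lower one. The count of all genes passing in that fit is not given here, so the 8 cannot be set against it. With library totals 1 member was higher (PSMG3) and 2 were lower (PSMC3 and PSME1).

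The oligonucleotides themselves were compared with their controls. The mature strands of the miRNAs are shown from RefSeq because their seeds (bases 2 to 8, in capitals) define the sites that were counted in the 3′ untranslated regions (UTRs) of the members. The 3 seeds differ from each other.
hsa-miR-200c-3p: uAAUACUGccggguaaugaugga
hsa-miR-222-5p: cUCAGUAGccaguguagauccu
hsa-miR-512-3p: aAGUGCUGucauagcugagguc

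With I-miR-200c-3p against IC, no member passed in edgeR or DESeq2 in DMSO (0.0157% of all genes did), in sorafenib (0%) or in the interaction with sorafenib (0%). No member had an unadjusted p under 0.05 in these, against 667, 273 and 413 of the 12738 genes tested. With M-miR-222-5p against MC none passed in either tool in DMSO (0%), in sorafenib (0%) or in the interaction (0%). An unadjusted p under 0.05 was found for 3, 1 and 0 members, and for 737, 800 and 260 of the 13244 genes tested. With M-miR-512-3p against the same MC libraries, no member passed in DMSO (0.634% of all genes did), and DESeq2 called PSME1 as lower (-0.58). There 5 members had an unadjusted p under 0.05, as did 1385 of the 13244 genes tested. In sorafenib PSMA4 fell (0.355% of all genes passed), and DESeq2 also called PSMD8 (0.78). In the interaction none passed in either tool (0.00755% of all genes did), and 2 had an unadjusted p under 0.05 (667 of 13244 genes did). Over the members, the log2 fold changes ran from -0.35 to 0.42 for I-miR-200c-3p, from -1.16 to 0.68 for M-miR-222-5p and from -0.57 to 1.01 for M-miR-512-3p in DMSO, where 36 of 43 lay above 0 for M-miR-512-3p (median 0.13). The share of all genes above 0 in that comparison is not given here, so the 36 cannot be set against it. A value that missed the threshold does not show that the groups were alike.

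PSMA4, an alpha subunit (chr15:78540405-78552417, plus strand, GRCh38), was the member that passed against MC. It was at 144, 162 and 127 CPM in MC with DMSO and at 134.5, 171.5 and 173 with sorafenib. With M-miR-222-5p it was at 129, 175.5 and 146 with DMSO and at 177, 189 and 178 with sorafenib. In M-miR-512-3p it was at 113.5, 141 and 130 with DMSO and at 76.9, 92.2 and 80.7 with sorafenib, so the last 3 libraries lay below the other 15 of 24 h. The log2 fold change of sorafenib against DMSO in M-miR-512-3p was -0.65 ± 0.18 (SE; edgeR adjusted p = 0.022) and was called in 5 of 11 alternative fits; it was lost without replicate 1 or 3 with sorafenib or replicate 2 or 3 with DMSO (adjusted p up to 0.133). Against MC, both in sorafenib, it was -0.98 ± 0.18 (adjusted p = 0.0115). This call was kept in 7 of 11 fits and lost without replicate 2 or 3 of MC or replicate 1 of M-miR-512-3p (adjusted p up to 0.1). In DMSO the value was -0.18 ± 0.18 (adjusted p = 0.822). The difference between these effects, the interaction, was -0.80 ± 0.26, with an unadjusted edgeR p of 0.00443 and an adjusted p of 0.802.

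The canonical 3′ UTR of PSMA4 in GENCODE release 44, of 3473 bases, held 3 sites of miR-512-3p (CAGCACT, complementary to the seed), at bases 1102, 1691 and 1699, and 1 site of miR-222-5p. The sites of miR-512-3p are shown in capitals within 29 bases of UTR, because of this call.
site at base 1102: agccctatttgCAGCACTtttttgaactt
site at base 1691: ggaacattaaaCAGCACTtcagcactata
site at base 1699: aaacagcacttCAGCACTatacctgggtg

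Sites of miR-512-3p were found in 9 of the 45 member UTRs (20%), PSMA4, PSMA5, PSMB2, PSMC1, PSMD5, PSMD8, PSMD12, PSMD14 and PSMF1, against 19.7% of 19539 UTRs. In sorafenib the median log2 fold change of M-miR-512-3p against MC was 0.08 in the 9 members with a site and 0.18 in the 34 tested members without, and in DMSO 0.15 and 0.12. Which 3′ ends of PSMA4 the cells used was not measured, and a site is a match of letters.

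Genes that work with the proteasome under other names were taken from lists. Of 11 partners of the proteasome, 4 (36.4%) rose at 24 h, against 13.4% of all genes: ZFAND5, which carries proteins to the proteasome, by 1.05 ± 0.12, AKIRIN2, an importer of proteasomes into the nucleus, by 0.61 ± 0.16, SEM1, a lid subunit, by 0.49 ± 0.16, and TXNL1, a thioredoxin bound to the cap, by 0.43 ± 0.11 (edgeR adjusted p from 6.39e-07 for ZFAND5 to 0.0251 for SEM1). ZFAND5 was at 43.0, 48.0 and 40.6 CPM in MC with DMSO and at 70.8, 72.5 and 103 with sorafenib, and separated in all 3 transfections. POMP, the maturation factor of the core, and the ubiquitin receptor ADRM1 did not pass. Among the receptors that shuttle ubiquitinated proteins, RAD23B and UBQLN1 rose (0.46 and 0.50) and DDI2 fell by 0.79 on the log2 scale. Over all genes 13.4% rose and 12.4% fell. Not every gene of this list is reported here, so no share of the list is given. DDI2 is also the gene that fell in the NRF1 list below.

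Of the 8 genes listed for the NRF1 pathway, 4 (50%) rose at 24 h and 1 (12.5%) fell, against 13.4% and 12.4% of all genes. The list also holds NFE2L2, the gene of another factor. MAFF, MAFG and MAFK, the small MAF partners, rose by 2.22 ± 0.20, 1.61 ± 0.18 and 1.30 ± 0.19 (edgeR adjusted p = 2.68e-08, 4.02e-07 and 1.85e-05), and NFE2L2, which encodes NRF2, by 0.41 ± 0.12 (adjusted p = 0.0108). DDI2, the protease that activates NRF1, was at 126, 95.3 and 114 CPM in MC with DMSO and at 56.1, 71.5 and 58.4 with sorafenib, and it fell by 0.79 on average (adjusted p = 0.000143). NFE2L1 itself did not pass: its libraries were higher with sorafenib in M-miR-222-5p and lower in M-miR-512-3p, without overlap. At 6 h NFE2L2 rose by 0.47 ± 0.11 (edgeR adjusted p = 0.0194) and MAFG fell by 0.62 (adjusted p = 0.0297). Among the other lists PAAF1 rose at 6 h by 0.63 ± 0.15 (adjusted p = 0.0207). RPS27A, which encodes ubiquitin fused to a ribosomal protein, rose at 24 h, by 0.44 ± 0.13 (adjusted p = 0.0154). With library totals the 24 h calls of SEM1, TXNL1, RAD23B, RPS27A and NFE2L2 were lost, and that of SEM1 and the 6 h calls of MAFG, NFE2L2 and PAAF1 were also lost without single libraries.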

How the data were processed

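Messenger RNA of 30 HepG2 cultures was read from the 3′ end (QuantSeq 3′ FWD libraries). Per the labels and the study's methods, the authors aligned the reads with STAR to GRCh38 and obtained gene counts with HTSeq-count, and the deposited values used here are raw read counts per Ensembl gene. Versions, strand setting and molecular identifiers are not given in the sources used here. A table of signal normalised by the authors within each transfection was not used. Of 60199 lines, 92 named no gene (3 counts) and were left out. Groups came from the sample labels.

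Counts were tested with the edgeR 4.0.16 quasi-likelihood F test in R 4.3.3 (TMM scaling, filterByExpr, 1 coefficient per group, two-sided), separately for 12 libraries of 6 h, 18 of 24 h and all 30, with p-values adjusted over all genes tested (12738, 13244 and 13800). An adjusted p under 0.05 was a call. SE is the log2 fold change over the square root of F. The fit was tested on simulated data. Alternatives were DESeq2 1.42.0, no filter, library totals, a replicate block, the compared groups only, and each replicate left out. Replicate numbers are in the labels. Same-numbered deviations from the group means correlated over 0.1 in every pair for M-miR-222-5p with DMSO against sorafenib (0.159 to 0.228) and for DMSO in MC against M-miR-222-5p (0.32 to 0.378), so there the numbers were taken to pair the libraries. They did not in the other comparisons. The members and lists were chosen with earlier results of these data known. Named were members called with sorafenib, the catalytic subunits, alternative caps and inhibitor, untested members, the extremes of each comparison, and up to 4 called genes of each other list. PSMC5, PSMC3, PSMD8, PSMA1 and PSMD12, and genes that a list names without a call, were chosen after their values were seen. Some genes of the other lists are not reported here. The SD and SE include the spread between replicates, while the limit of 3 counts covers counting error only. PCR copies cannot be removed without molecular identifiers. Pseudogenes of members held at most 2.62% of the parent's counts.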

Additional observations from a re-analysis of the deposited data

Results flagged for a closer look

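The averaged effects of sorafenib at 24 h and at 6 h differed, by the edgeR test of the difference itself, for 2 proteasome genes and 5 genes of the other lists reported here. The difference (24 h minus 6 h, log2) was 0.81 for PSMA3 and 0.68 for PSMG3. Among the others it was 2.70 for MAFF, 2.23 for MAFG and 1.61 for MAFK. ZFAND5 differed by 1.06 and UBQLN1 by 0.55. All 6 h transfections used an inhibitor or its control and all 24 h transfections a mimic or its control, so time and kind of oligonucleotide cannot be told apart. The calls of MAFF, MAFG, MAFK and ZFAND5 were kept in 34 of 34 alternative fits, that of PSMG3 in 33, that of UBQLN1 in 15 and that of PSMA3 in 17.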

How the results depend on the processing

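Of 244 alternative values of the counts of called members, 195 stayed within 1.5 times the value reported, where 0 against 0 counted as the same. This compares how many genes were called and not which ones. In M-miR-512-3p the sorafenib calls of PSMD7 and PSMA4 were lost without the filter and with the compared groups alone. PSMD6 and PSMD9 passed there without the filter, and PSMD9 and PSMG3 with the compared groups alone. Of 1051 alternative values of genes already called in the main fit, 916 kept the call and 135 lost it. None changed sign, in fits that mostly share the libraries of the main fit. Of 16 calls of proteasome genes, those of PSMD6, PSMD7, PSMD14 and PSMG3 in the 24 h average held in every alternative fit. With DESeq2 the members called with sorafenib were 4 in MC, 2 in M-miR-222-5p and 5 in M-miR-512-3p, 5 for the difference between times, and 1 (DMSO) and 2 (sorafenib) for M-miR-512-3p against MC. Without the filter they were 1 in I-miR-200c-3p, 2 in MC, 3 in M-miR-222-5p, 4 for the difference and 1 for M-miR-512-3p against MC in DMSO. With library totals they were 0 in MC, 1 in M-miR-512-3p and 6 in the 24 h average, with medians of 0.0670 in MC, 0.0818 in M-miR-222-5p, 0.0477 in M-miR-512-3p and 0.0657 in the 24 h average. With the compared groups alone they were 0 in MC, 2 in M-miR-222-5p and 0 for M-miR-512-3p against MC in sorafenib. With a replicate block they were 1 in M-miR-222-5p, 3 in M-miR-512-3p, 11 in the 24 h average and 4 for the difference. For the alternative fits of this section the counts of all genes called are not given. A change in the member counts therefore cannot be told apart from a change over all genes. Over all groups the replicate numbers did not pair the libraries throughout (correlations of same-numbered deviations from -0.222 to 0.451 at 6 h and from -0.246 to 0.378 at 24 h, over 0.1 in 5 of 18 and 21 of 45 pairs). For M-miR-222-5p against MC in DMSO, where they did, the block changed no member call. The cause of these changes was not tested.

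Leaving out each replicate gave 0 to 1 members called in I-miR-200c-3p, 0 to 1 in MC, 0 to 3 in M-miR-222-5p (3 without M-miR-222-5p_DMSO replicate 2), 0 to 2 in M-miR-512-3p, 9 to 12 in the 24 h average, 1 to 8 for the difference and 0 to 1 for M-miR-512-3p against MC in sorafenib. The medians ranged from -0.0370 to 0.0932 in IC, 0.20 to 0.28 in MC and 0.10 to 0.30 in M-miR-222-5p. PSMA8 and PSMB11 did not pass the filter on low counts and were not tested.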
